A study of Caenorhabditis elegans with 8 samples.

Results

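The genes hlh-30 and mxl-3 of Caenorhabditis elegans encode a pair of transcription factors that act on lysosomal genes, and their transcripts were measured by RNA sequencing of whole adult worms. Both genes were taken by name. They are 2 of the 18290 genes found in both deposited count tables, and both were among the 15846 genes with enough reads to test. The 8 libraries form 4 groups of 2, which are the mir-83 mutant strain MT15501 at adult day 4, wild-type N2 at adult day 4, the mir-83 mutant at adult day 12 and N2 at adult day 12. All groups grew at 20 °C on NGM agar with FuDR, a drug that stops the production of progeny, and OP50, the food bacterium, was washed off before RNA was taken. The mutant is 1 strain, its allele is not given in the labels, and the level of the microRNA was not analysed here.

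HLH-30 is the worm counterpart of mammalian TFEB, a basic helix-loop-helix leucine zipper factor that enters the nucleus in starvation and stress and activates genes of lysosomes and autophagy. MXL-3 is a smaller factor of the same structural class, related to Max. In fed worms it is known to hold down lysosomal lipase genes, which HLH-30 activates in fasting, so the pair is known as an opposed switch on the breakdown of stored fat. The amount of transcript says nothing about where the proteins were in the cell.

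Deposited depth ran between 20.3 and 41.2 M reads per library. The mir-83 day 12 libraries were the least alike of any pair, with a correlation of log2 levels over genes of 0.894, where the other 3 groups had between 0.948 and 0.975 (genes are not independent). Levels are given as CPM, read counts brought to a common library total and scaled by TMM, a normalisation that sets the bulk of genes equal between libraries. The factors of the mir-83 day 4 libraries, 0.644 and 0.596, stood apart from those of the other 6, which lay between 1.08 and 1.23. Day 4 differences between the strains therefore depend on this scaling, and with plain library sizes the median over all genes in that comparison was -0.99 in place of -0.14 (log2). In the labels of replicate 1 the libraries of day 4 and of day 12 carry different run codes, so in that replicate age and run cannot be told apart.

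hlh-30 was higher in the mutant at day 4. This gene (W02C12.3, WBGene00020930) lies on the minus strand of chromosome IV, from 4014793 to 4034951 of WBcel235, and has 13 annotated transcripts whose exons cover 3268 bases. Its summed reads were 2995 and 2597 in mir-83 day 4 and 1093 and 970 in N2 day 4 (replicates 1 and 2), which are 217 and 122 CPM in the mutant and 47.5 and 28.3 CPM in N2. Both mutant libraries lay above both N2 libraries. The group means were 169 ± 67.4 CPM in mir-83 and 37.9 ± 13.6 CPM in N2 (SD, n = 2 each). The log2 fold change was 2.15 ± 0.50 (SE), past the threshold in edgeR's quasi-likelihood test with Benjamini-Hochberg adjustment over all genes (adjusted p = 0.043). It was 2.19 within replicate 1 and 2.10 within replicate 2, and it lay above 97.5% of all genes tested. In the same comparison 4.42% of all genes passed as higher. The call is close to its threshold. It was lost with plain library sizes (log2 fold change 1.30, adjusted p = 0.104) and with no replicate block (2.16, adjusted p = 0.0663). Leaving out any 1 of the 4 day 4 libraries also lost it. That step leaves a single library in a group and removes nearly all calls over all genes, so the loss is not particular to hlh-30. The fold change was then 2.47 without N2 day 4 replicate 1 and 1.9 without N2 day 4 replicate 2.

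mxl-3 stood higher in the mutant at day 4 in both replicates, without passing the test. The gene (F46G10.6, WBGene00003511) lies on the minus strand of chromosome X, from 13349639 to 13350804, and has 1 transcript of 1008 bases. Its reads were 2191 and 3076 in mir-83 day 4 and 1752 and 1470 in N2 day 4, or 159 and 144 CPM in the mutant and 76.2 and 42.8 CPM in N2. The groups did not overlap, at 151 ± 10.4 CPM in mir-83 and 59.5 ± 23.6 CPM in N2. With plain library sizes they did, at 102 and 85.9 CPM in mir-83 and 88.5 and 46.1 CPM in N2. For 2 libraries against 2, an exact permutation test cannot give a two-sided p under 0.333. Lack of overlap is thus only a description, for every gene named here, and its share over all genes was not counted. The log2 fold change was 1.31 ± 0.48 (edgeR, adjusted p = 0.132), with 1.06 within replicate 1 and 1.75 within replicate 2. With plain library sizes it was 0.45 (adjusted p = 0.538), without N2 day 4 replicate 1 it was 2.23 and without N2 day 4 replicate 2 it was 0.70, none of which passed.

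At day 12 the order of the strains was not settled for either gene. hlh-30 had 372 and 1143 reads in mir-83 and 1524 and 996 in N2, which are 10 and 23.1 CPM in the mutant and 39.1 and 22.1 CPM in N2. The mutant was far lower in replicate 1 and level with N2 in replicate 2, so the groups overlapped. The log2 fold change of -0.78 ± 0.50 did not pass (edgeR, adjusted p = 0.9996), and the difference was -1.96 within replicate 1 and 0.06 within replicate 2. mxl-3 had 491 and 1244 reads in mir-83 and 631 and 1800 in N2, or 13.2 and 25.1 CPM in the mutant and 16.2 and 40.0 CPM in N2. Here each mutant library lay below the N2 library of its replicate, and the groups overlapped, with both replicate 1 libraries low. The log2 fold change was -0.53 ± 0.48 (adjusted p = 0.9996). In this comparison 0% of all genes passed, and the count by DESeq2 was 4. Of the 15846 genes, 306 had an unadjusted p under 0.05, fewer than that cut-off would give with no difference.

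**Figure D1:**
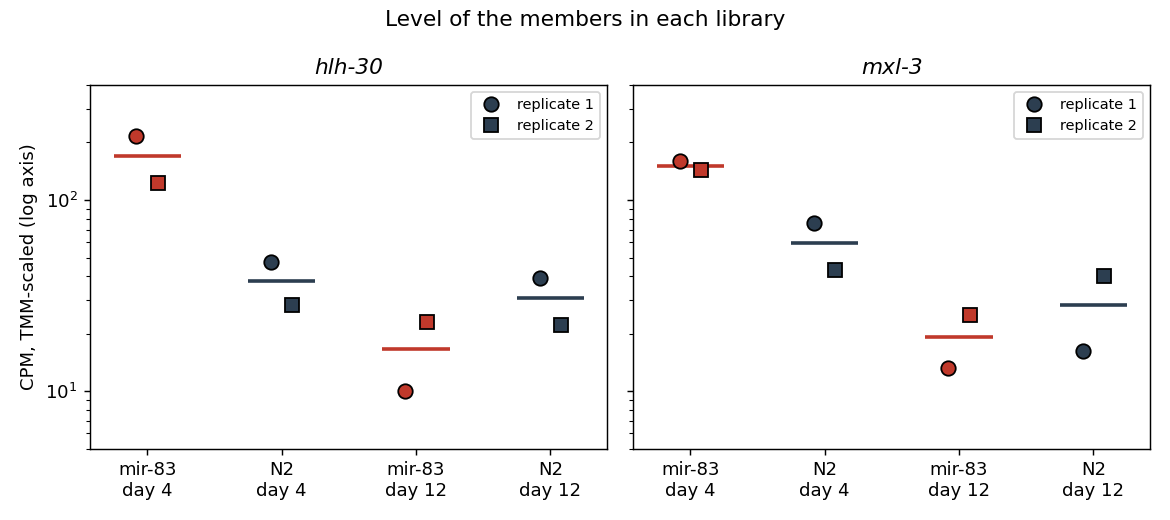
CPM after TMM scaling (log axis) of hlh-30 and mxl-3 in each of the 8 libraries, by group, with replicates marked. For both genes the mir-83 day 4 libraries are the highest, with hlh-30 at 217 and 122 CPM and mxl-3 at 159 and 144 CPM, and the 4 day 12 libraries lie at or below 40.0 CPM.

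Both genes were lower at day 12 than at day 4 in the mutant. hlh-30 averaged 16.6 ± 9.23 CPM at day 12 and 169 ± 67.4 CPM at day 4 in mir-83, and mxl-3 averaged 19.2 ± 8.40 CPM at day 12 and 151 ± 10.4 CPM at day 4. No day 12 library of the mutant reached a day 4 library in either gene. hlh-30 fell by 3.24 ± 0.53 on the log2 scale (edgeR, adjusted p = 0.00614) and mxl-3 fell by 3.04 ± 0.52 (adjusted p = 0.00663). In this comparison 15.2% of all genes passed as lower. The replicates gave different sizes of fall, -4.43 in replicate 1 and -2.39 in replicate 2 for hlh-30, and -3.58 and -2.52 for mxl-3. Both genes still passed with plain library sizes, at -2.27 (adjusted p = 0.0149) and -2.07 (adjusted p = 0.0215). Without mir-83 day 4 replicate 1 the adjusted p was 0.0527 for hlh-30 and 0.0558 for mxl-3.

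In N2 neither gene passed the test with age. hlh-30 averaged 30.6 ± 12.0 CPM at day 12 and 37.9 ± 13.6 CPM at day 4, a log2 fold change of -0.31 ± 0.48 (edgeR, adjusted p = 0.690). The 2 day 12 libraries and the 2 day 4 libraries of N2 overlapped for hlh-30, and the replicates gave -0.28 and -0.35. mxl-3 averaged 28.1 ± 16.8 CPM at day 12 and 59.5 ± 23.6 CPM at day 4, with -1.19 ± 0.50 (adjusted p = 0.167). For mxl-3 the N2 libraries of the 2 ages did not overlap, but the fall was -2.23 within replicate 1 and only -0.10 within replicate 2. With plain library sizes the 2 ages overlapped, at 18.7 and 49.3 CPM at day 12 and 88.5 and 46.1 CPM at day 4. In N2, 4.51% of all genes passed with age, 2.11% as higher and 2.40% as lower.

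The change with age in the mutant differed from that in N2 by -2.93 ± 0.70 for hlh-30 (edgeR interaction, adjusted p = 0.0890) and by -1.85 ± 0.68 for mxl-3 (adjusted p = 0.201). The difference was negative in both replicates of both genes, at -4.15 and -2.04 for hlh-30 and -1.35 and -2.42 for mxl-3. Neither passed. In this comparison 0% of all genes were called, 2911 had an unadjusted p under 0.05 and the smallest adjusted p was 0.0548. For hlh-30 the call depends on the tool, since DESeq2 gave -2.89 (adjusted p = 0.00483). In edgeR hlh-30 did not pass with plain library sizes (-2.04, adjusted p = 0.117) or with no replicate block (-3.05, adjusted p = 0.124). For mxl-3 plain library sizes gave -0.98 (edgeR, adjusted p = 0.427). The value of hlh-30 also depends on single libraries. Leaving out the mutant's day 12 library gave -2.10 for replicate 1 and -4.1 for replicate 2. The same step on the N2 libraries of day 4 gave -3.29 and -2.69.

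**Figure D2:**
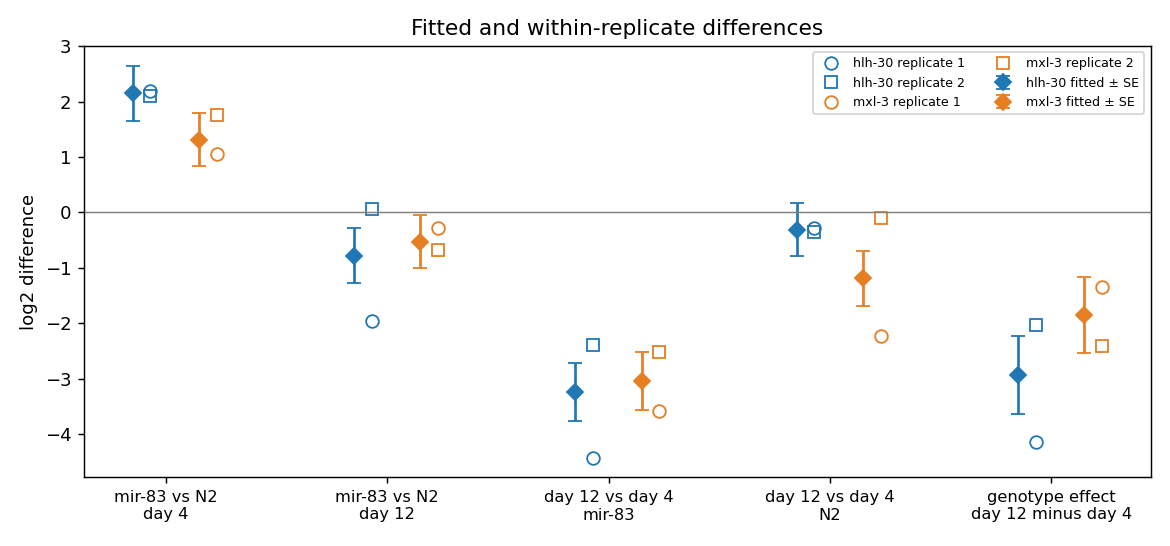
Log2 fold change of hlh-30 and mxl-3 in the 5 comparisons, with edgeR's estimate and its standard error, and the difference within each replicate as points. The day 4 difference of hlh-30 is near 2.15 in both replicates, while at day 12 its 2 replicates lie at -1.96 and 0.06.

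Levels of the 2 genes can be set against each other only per length of transcript. Per kilobase of exon, mxl-3 stood above hlh-30 in every group and in every library. At day 4 the mean level was 150 CPM per kb for mxl-3 and 51.8 for hlh-30 in mir-83, beside 59.0 for mxl-3 and 11.6 for hlh-30 in N2. At day 12 it was 19 for mxl-3 and 5.06 for hlh-30 in mir-83, beside 27.9 for mxl-3 and 9.37 for hlh-30 in N2. The log2 ratio of hlh-30 to mxl-3 per kilobase, which does not depend on scaling between libraries, was -1.25 and -1.94 in mir-83 day 4 and -2.38 and -2.30 in N2 day 4. Both mutant libraries thus had a higher share of hlh-30 than both N2 libraries at day 4, by 1.13 in replicate 1 and 0.36 in replicate 2. At day 12 the ratio was -2.10 and -1.82 in mir-83 and -0.42 and -2.55 in N2, so the N2 values enclosed those of the mutant. The N2 day 12 replicate 1 library, with 1524 reads of hlh-30 and 631 of mxl-3, stood apart from the other 7. The ratio was not tested. The length used for hlh-30 is the union of all its exons, and without division by length the mean log2 ratio was 0.10 in mir-83 day 4 and -0.64 in N2 day 4.

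**Figure D3:**
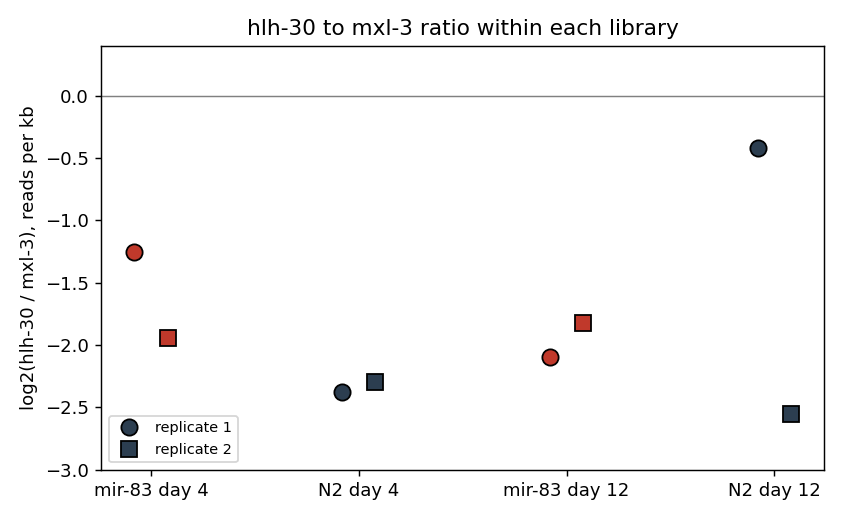
Log2 ratio of hlh-30 to mxl-3 reads per kilobase of exon in each library, by group, with replicates marked and a line at equal levels. All 8 values lie below 0, the mir-83 day 4 pair (-1.25 and -1.94) lies above the N2 day 4 pair (-2.38 and -2.30), and N2 day 12 replicate 1 is at -0.42.

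The day 4 difference of hlh-30 was seen in every isoform row, but the rows cannot be read as separate measures. The isoforms share most exons, and how shared reads were divided among rows is not known. Rows may therefore follow the sum of the gene, and their direction cannot show a rise in each isoform. The deposited tables list transcripts, with 12 rows for hlh-30 in the table of replicate 1 and 8 in that of replicate 2, and with 1 row each for mxl-3. At day 4 the hlh-30 rows of replicate 1 held 182 to 338 reads in mir-83 and 67 to 115 reads in N2. Those of replicate 2 held 221 to 468 reads in mir-83 and 65 to 213 reads in N2. In CPM, 12 of 12 and 8 of 8 rows were higher in the mutant, by ratios between 3.33 and 6 in replicate 1 and between 3.54 and 5.48 in replicate 2. No single row carried the gene's reads, since the largest held 22% of them at most. At day 12, 0 of 12 rows were higher in the mutant in replicate 1 and 5 of 8 in replicate 2. With age in the mutant all rows were lower in both replicates, at ratios of day 12 to day 4 between 0.0309 and 0.0602 in replicate 1 and between 0.164 and 0.220 in replicate 2.

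The annotated transcripts of hlh-30 start either upstream, between 4034951 and 4027063, or downstream, between 4019044 and 4018331. Isoforms b, c, d and e start upstream and a, f, g and h downstream. In replicate 1, whose rows carry isoform letters, the upstream isoforms took 39.9% of hlh-30 reads in mir-83 day 4 (95% Wilson interval 38.2 to 41.7, 1195 of 2995 reads) and 38.3% in N2 day 4 (35.5 to 41.3, 419 of 1093). At day 12 they took 33.9% in mir-83 (29.2 to 38.8, 126 of 372) and 32.2% in N2 (29.9 to 34.5, 490 of 1524). The intervals of the strains overlapped at each age, and in N2 those of the 2 ages did not. These are single libraries and the intervals cover counting error only. In replicate 1 age and run cannot be told apart. The upstream isoforms fill 4 rows and the downstream isoforms 8, so the shares may follow the number of rows, which was not tested. Upstream and downstream isoforms share most exons, and the sources used here do not say how shared reads were split.

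**Figure D4:**
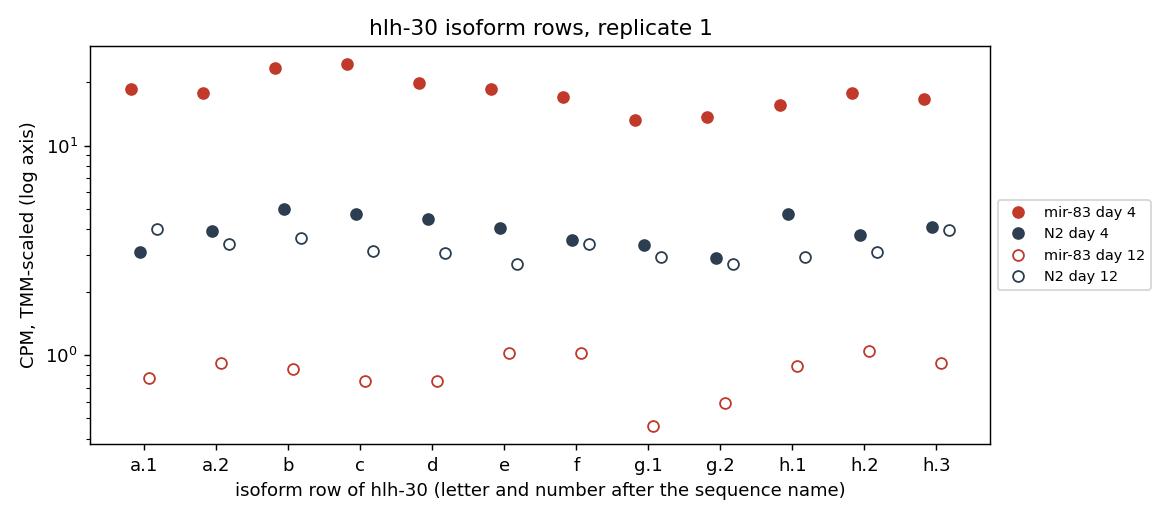
Reads of each hlh-30 isoform row, scaled to CPM (log axis), in the libraries of replicate 1 (12 rows). Rows of replicate 2 are not drawn. All 12 rows are higher in mir-83 day 4 than in N2 day 4, and no row holds more than 11.3% of the gene's reads in a library.

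Other factors of the same structural class were read beside the pair. mdl-1, which encodes a Mad-like partner of Max proteins, had 180 and 127 CPM in mir-83 day 4 and 41.9 and 43.5 CPM in N2 day 4. Its groups did not overlap, and it rose by 1.86 ± 0.36 (edgeR, adjusted p = 0.0278). With age in the mutant mdl-1 fell by 3.17 ± 0.38 (adjusted p = 0.00266). sbp-1, the worm SREBP gene of lipid synthesis, had 46.6 and 58.8 CPM in mir-83 day 4 and 20.5 and 17.1 CPM in N2 day 4, without passing (1.44 ± 0.40, adjusted p = 0.0645). In the mutant sbp-1 was lower at day 12 (-1.62 ± 0.40, adjusted p = 0.0222). mxl-2, a Max-like gene, did not pass at day 4 (0.87 ± 0.25, adjusted p = 0.0704) and its fall with age in the mutant (-0.91 ± 0.25, adjusted p = 0.031) was 0.06 with plain library sizes. mml-1, the Mondo gene, and mxl-1, a Max gene, had day 4 values of 0.26 ± 0.38 and -0.16 ± 0.22 and did not pass in any of the 5 comparisons with TMM scaling. On plain library sizes mdl-1 had 1.01 at day 4 (adjusted p = 0.0845) and mxl-1 had -1.01 (adjusted p = 0.0123). With age in the mutant plain library sizes gave -0.65 for sbp-1, which did not pass (adjusted p = 0.233), and 0.70 for mxl-1, which did (adjusted p = 0.0256), as did its interaction (1.49, adjusted p = 0.0257). Of the 5 genes, 1 rose and 0 fell at day 4, beside 4.42% of all genes higher, and 0 rose and 3 fell with age in the mutant, beside 15.2% of all genes lower. With plain library sizes 1 rose and 1 fell with age in the mutant.

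The lysosomal acid lipase genes, some of which are known as targets on which the 2 factors oppose each other, gave no call in edgeR. Of 8 lipl genes, 7 had enough reads to be tested, and 0 passed in each of the 5 comparisons in edgeR. At an unadjusted p under 0.05 there were 0 at day 4, 0 at day 12, 4 with age in N2 and 2 with age in mir-83. Of all 15846 genes, 4178, 306, 4460 and 6957 had such a p, in the same order. DESeq2 called 0, 0, 2 and 3 lipl genes in that order, beside 2590, 4, 3252 and 6294 of 18290 genes. At day 4 the median log2 fold change of the 7 was 0.52, beside -0.14 over all genes, and with plain library sizes it was -0.39. lipl-6 and lipl-8 were hardly detected, with at most 16 and 10 reads in a library.

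The day 4 lipase values of N2 came from 2 unlike libraries. lipl-3 had 11.3 and 13.6 CPM in mir-83 day 4 and 30.1 and 0.99 CPM in N2 day 4. lipl-5 had 136 and 146 CPM in mir-83 and 168 and 22.6 CPM in N2. lipl-2 had 15.6 and 15.5 CPM in mir-83 and 41 and 4.08 CPM in N2. For each of these 3 genes the 2 mutant libraries were alike and lay between the 2 N2 libraries. lipl-1 had 17.4 and 18.5 CPM in mir-83 and 77.9 and 16.1 CPM in N2, and lipl-4 had 3.62 and 4.26 CPM in mir-83 and 3.39 and 1.31 CPM in N2. lipl-7 was at like levels in all 4 libraries, with 30.1 and 32.8 CPM in mir-83 and 32.3 and 36.9 CPM in N2.

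Between the 2 N2 day 4 libraries the replicate 1 level was 30.4 times that of replicate 2 for lipl-3, 10 times for lipl-2, 7.43 times for lipl-5 and 4.84 times for lipl-1. Ranked by the signed log2 difference, replicate 1 minus replicate 2, they lay above 99.9%, 99.4%, 98.7% and 96.5% of all genes tested. The same libraries differed by 1.68 times for hlh-30 and 1.78 times for mxl-3, above 81.1% and 82.8% of genes in the same ranking. fmo-2, a flavin monooxygenase gene known to be induced through HLH-30 in fasting and named here after its values were seen, differed in the same direction by 149 times, with 69.6 CPM in replicate 1 and 0.466 CPM in replicate 2 of N2 day 4. Its values were 25.5 and 27.5 CPM in mir-83 day 4. Among the defence genes known to be induced through HLH-30, read below, fmo-2 had the largest ratio between the N2 day 4 libraries. In that pair the replicate 1 level was 3.39 times that of replicate 2 for ilys-2 and 2.06 times for ilys-3. It was 1.76 times for lys-2 and 1.02 times for lys-5. clec-60 went the other way, with 16 CPM in replicate 1 and 45.4 CPM in replicate 2. Without N2 day 4 replicate 1 the median day 4 fold change of the lipl genes was 1.81, and without N2 day 4 replicate 2 it was -0.43, with 0 called in either case.

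**Figure D5:**
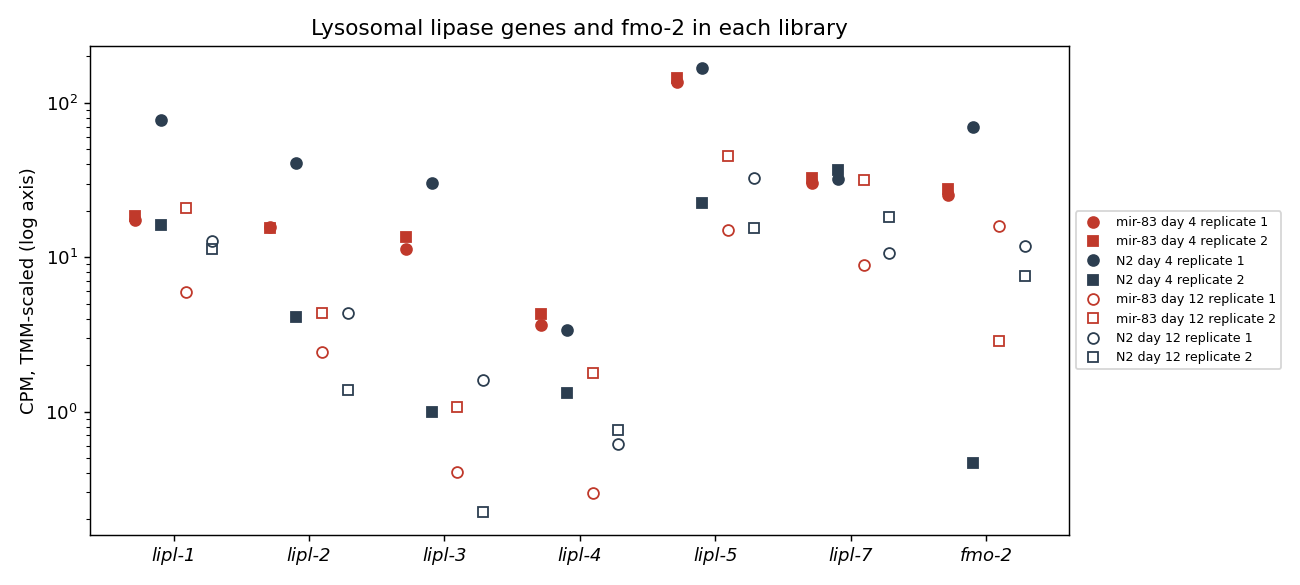
CPM (log axis) of the lipl genes with reads enough to plot, and of fmo-2, in each library, by group, with replicates marked. In N2 day 4 the 2 libraries lie 30.4 times apart for lipl-3 and 7.43 times apart for lipl-5, while the mir-83 day 4 libraries lie close together, at 136 and 146 CPM for lipl-5.

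With age 6 of the 7 tested lipase genes, all but lipl-6, had lower values in both strains, without passing. With plain library sizes the values of lipl-1 (0.58) and lipl-7 (0.13) were positive in the mutant. lipl-5 had 15.1 and 45.2 CPM in mir-83 day 12 and 136 and 146 CPM in mir-83 day 4 (-2.11 ± 0.85, edgeR, adjusted p = 0.0942). lipl-3 had 0.404 and 1.07 CPM at day 12 and 11.3 and 13.6 CPM at day 4 in the mutant (-3.89 ± 1.38, adjusted p = 0.0656). In both genes the 2 ages of the mutant did not overlap. In N2, lipl-5 had 32.4 and 15.5 CPM at day 12 and 168 and 22.6 CPM at day 4, and the 2 ages overlapped. The median over the 7 genes was -2.03 in the mutant and -1.87 in N2, beside 0.05 and -0.09 over all genes. In N2 it was -0.35 without N2 day 4 replicate 1, where lipl-5 had 0.23, and -2.88 without N2 day 4 replicate 2. In the mutant it was -1.05 with plain library sizes and -1.21 without replicate 2 of its day 4. Leaving out the day 12 library of replicate 1 gave -1.02, and leaving out that of replicate 2 gave -3.73. The 2 ageing comparisons use separate libraries.

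Genes of lysosomal proteases were read next. Of 22 tested genes for aspartic and cysteine proteases, 7 rose and 0 fell in the mutant at day 4, a share of 31.8% beside 7.06% of all genes called in either direction, with a median of 1.40. asp-3 (2.86 ± 0.52), asp-1 (2.14 ± 0.37), cpr-6 (2.06 ± 0.40) and cpl-1 (1.87 ± 0.40), genes of the cathepsin D, B and L types, were among them. With age 0 rose and 18 fell in the mutant (81.8%, beside 27.9% of all genes called), and 0 rose and 8 fell in N2 (36.4%, beside 4.51%). asp-1 had the smallest p in both strains, at -6.12 ± 0.44 in mir-83 and -3.05 ± 0.38 in N2. With plain library sizes 2 rose at day 4, and 1 rose and 16 fell with age in the mutant.

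Of 21 subunit genes of the V-ATPase, the proton pump that acidifies lysosomes and that is a known target of HLH-30 and TFEB, 5 rose and 0 fell at day 4, with a median of 0.80, beside 4.42% of all genes higher. vha-12 (2.21 ± 0.28), vha-6 (1.88 ± 0.37), vha-13 (1.65 ± 0.26) and vha-2 (1.55 ± 0.24) were among those that rose. With age 0 rose and 16 fell in the mutant, beside 15.2% of all genes lower, and 0 rose and 2 fell in N2, beside 2.40%. These counts depend on scaling. With plain library sizes 3 rose and 4 fell at day 4 with a median of -0.05, and 3 rose and 6 fell with age in the mutant.

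Of 26 autophagy genes, 0 rose and 3 fell in the mutant at day 4, namely epg-2 (-3.49 ± 0.53), which encodes an adaptor for protein aggregates, atg-16.2 (-1.45 ± 0.32), of the conjugation machinery, and vps-34 (-1.11 ± 0.27), a lipid kinase gene. Of all genes 2.63% passed as lower, and the median of the 26 was -0.19 beside -0.14. With age 9 rose and 3 fell in the mutant, epg-2 by 3.35 ± 0.54, vps-34 by 1.64 ± 0.27 and bec-1, the beclin gene, by 1.53 ± 0.26 among those that rose. In N2 0 passed with age. There 6 had an unadjusted p under 0.05 and 3 were called by DESeq2, beside 4460 and 3252 of all genes. Of all genes 12.8% rose and 15.2% fell with age in the mutant. On plain library sizes 0 rose and 14 fell at day 4, and 19 rose and 0 fell with age in the mutant.

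Of 33 other lysosomal genes, 2 rose and 0 fell at day 4, namely asah-1 (2.29 ± 0.46), an acid ceramidase gene, and laat-1 (1.53 ± 0.30), a transporter of basic amino acids. These 2 are 6.06% of the list, near the 7.06% of all genes called. With age 2 rose and 11 fell in the mutant, beside 12.8% of all genes higher and 15.2% lower. In N2 0 rose and 1 fell, beside 2.11% higher and 2.40% lower. With plain library sizes 7 rose and 4 fell with age in the mutant. Of 14 genes of the HOPS complex and of fusion with lysosomes, 1 rose and 0 fell at day 4, which was the GTPase gene rab-7 (1.36 ± 0.25) and is 7.14% of that list, again near the share of all genes. With age 8 rose and 1 fell in the mutant, with vps-11 at 1.75 ± 0.28 and rab-7 as the one that fell, at -1.50 ± 0.25. With plain library sizes 0 of the 33 rose and 3 fell at day 4, and 0 of the 14 rose and 10 fell.

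Of 27 genes known to act upstream on HLH-30 or its worm pathway, 2 rose and 0 fell at day 4. They were aak-2 (1.52 ± 0.31), an AMPK subunit gene, and dkf-2 (1.37 ± 0.26), a protein kinase D gene. With age 3 of the 27 rose and 3 fell in the mutant, beside 12.8% and 15.2% of all genes. In N2 2 rose and 0 fell, beside 2.11% and 2.40%. With plain library sizes 19 rose and 0 fell in the mutant. let-363, which encodes the TOR kinase that holds TFEB in the cytoplasm in mammals, rose with age by 1.57 ± 0.24 in mir-83 and by 1.54 ± 0.24 in N2. The share called at day 4 was 7.41%, beside 7.06% of all genes, and with plain library sizes 0 rose and 10 fell. Of 10 genes of factors that act with HLH-30, daf-16, the FOXO gene, rose at day 4 (1.44 ± 0.22) as the 1 gene that passed. That is 10% of the list, near the 7.06% of all genes called, and with plain library sizes daf-16 had 0.59 (adjusted p = 0.0512). With age in the mutant hsf-1 rose (1.40 ± 0.28), and nhr-80 (-2.98 ± 0.53), pha-4 (-2.65 ± 0.66) and daf-16 fell. These are 1 higher and 3 lower, beside 12.8% and 15.2% of all genes, and with plain library sizes 4 rose and 1 fell. With age daf-16 rose in N2 (1.17 ± 0.22) and was lower in the mutant (-0.69 ± 0.22), a direction that turned to 0.27 with plain library sizes. Of 6 defence genes known to be induced through HLH-30, 0 passed at day 4 in edgeR, at an unadjusted p under 0.05 and in DESeq2, and 1, the lysozyme gene lys-5, fell with age in the mutant (-3.19 ± 0.83). That is 16.7% of the list, beside 15.2% of all genes that fell, and with plain library sizes lys-5 did not pass (-2.24, adjusted p = 0.0724) and 1 other gene of the list rose. DESeq2 called 1 higher and 3 lower, beside 3450 higher and 2844 lower of 18290 genes.

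Across these 10 lists, lipl genes included, 171 genes were tested. At day 4, 19 rose and 3 fell, beside 4.42% and 2.63% of all genes, against 36 and 9 in DESeq2. The balance depends on scaling, since with plain library sizes 5 rose and 43 fell at day 4, and 65 rose and 28 fell with age in the mutant. For the day 4 comparison, leaving out 1 of the 4 day 4 libraries leaves a single library in its group. Calls over all genes then nearly vanish, so that step shows nothing particular to these lists. Without either mir-83 day 12 library 38 rose and 10 fell, among them 11 V-ATPase genes that rose and 7 autophagy genes that fell. With age in the mutant, where 23 rose and 59 fell, 1 rose and 20 fell without mir-83 day 4 replicate 1, and 0 rose and 25 fell without mir-83 day 4 replicate 2. In these 2 settings 12 and 14 proteases and 5 and 7 V-ATPase genes fell, 1 and 0 autophagy genes rose, and 0 genes of the HOPS list were called. With age in N2, where 3 rose and 11 fell, 0 were called without N2 day 4 replicate 1 or either N2 day 12 library, 2 fell without either mir-83 day 4 library, 26 fell without N2 day 4 replicate 2, and 16 rose and 42 fell without mir-83 day 12 replicate 1. Between the strains at day 12, 0 passed in edgeR, 5 had an unadjusted p under 0.05 and the DESeq2 count was 0. In the interaction 0 passed in edgeR, 45 had an unadjusted p under 0.05, and 3 higher and 20 lower were called by DESeq2, while with plain library sizes 19 were higher and 3 lower.

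Tissue markers moved at the same time, and asp-1 is in both the protease list and that of the intestine. Summed over 9 intestinal markers, where many lysosomal genes are known to be active, the level was 6430 and 7270 CPM in mir-83 day 4 and 1880 and 1370 CPM in N2 day 4. Over 10 body wall muscle markers it was 7960 and 6470 CPM in mir-83 and 1170 and 1510 CPM in N2. Over 9 neuronal markers it was 1060 and 675 CPM in mir-83 and 498 and 339 CPM in N2. Over 10 hypodermal markers it was 1410 and 1540 CPM in mir-83 and 171 and 395 CPM in N2. All 4 sums were higher in both mutant libraries, and 3 of 9, 6 of 10, 2 of 9 and 0 of 10 of their genes passed as higher, beside 4.42% of all genes. The median log2 fold changes of these lists were 0.83, 2.28, 0.25 and 0.65, and with plain library sizes they were -0.06, 1.43, -0.60 and -0.19. Oocyte markers summed to 17600 and 20500 CPM in mir-83 and 6410 and 6880 CPM in N2, sperm markers to 39.4 and 46.5 CPM in mir-83 and 77.3 and 35.8 CPM in N2, and embryo markers to 17.5 and 14.6 CPM in mir-83 and 39.3 and 35.0 CPM in N2. At day 4, 2 of 10 oocyte markers passed as higher and 0 of 10 sperm markers passed. Of 8 tested embryo markers 3 passed as lower, beside 2.63% of all genes. The medians of these lists were 1.27, -0.36 and -2.74, and with plain library sizes 0.42, -1.21 and -3.57. At day 12 the intestinal sum was 151 and 226 CPM in mir-83 and 263 and 329 CPM in N2. The part of these tissue markers in the day 4 and ageing values of hlh-30, mxl-3 and the lysosomal genes was not tested. In RNA of whole worms, fewer cells of a type and less RNA per cell cannot be told apart.

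The genes whose log2 CPM, centred within each replicate's table, was most like that of hlh-30 over the 8 libraries were let-2 (Pearson r = 0.995), pes-7 (0.995), pll-1 (0.992), pde-6 (0.990) and maph-1.1 (0.990), out of 8349 candidates with a standard symbol. Over the 6 libraries outside mir-83 day 4 their r lay between 0.971 and 0.983. Those most like mxl-3 were acs-22 (0.998), dhs-28, idpp-1, pqm-1 and pghm-1 (0.994 each), with r between 0.985 and 0.995 over the 6 libraries. The genes were picked by their r over all 8 libraries, which include these 6, so the second r is no separate check. The values share libraries, depth and scaling, and are descriptions.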

How the data were processed

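RNA of whole worms was extracted with Trizol, per the labels' protocols. The authors deposited 2 tables of raw counts of reads by transcript, 1 for replicate 1 and 1 for replicate 2. Of their tools, Bowtie2, edgeR and build ce11 appear in the submitters' processing notes, without versions or roles; counting, use of strand and assignment to isoforms are not given in the sources used here. No label says that replicates were grown apart; the spread behind the p-values is that between these samples and may be technical.

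Transcripts were matched to WormBase genes of WBcel235, the assembly of ce11, and summed per gene. The first table held 30443 rows under sequence names, of which 207 (0.0837% of reads) matched no gene. The second held 29023 rows, with 24022 matched by accession, 4725 by gene name only and 276 (0.242% of reads) not matched. Unmatched rows, and 2 columns of values with no sample, were not used. The 2 genes were taken by name. Neither has an exon that overlaps another annotated gene, though 2 small non-coding RNA genes lie in introns of hlh-30.

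The 18290 genes in both tables were filtered with filterByExpr, scaled by TMM and tested with edgeR 4.0.16 (glmQLFit, glmQLFTest) over all 8 libraries, with 1 mean per group and the replicate number as a block, since the tables rest on different annotations. Tests were two-sided, Benjamini-Hochberg adjusted over all 15846 genes in each comparison, with a threshold of 0.05. Fold changes are on the log2 scale, mir-83 minus N2 or day 12 minus day 4. Libraries of the same number deviated together from their groups (r over genes between 0.12 and 0.416 in 6 pairs of groups). They share a table and its annotation, so this cannot show that the worms or preparations were paired. The test was also run on simulated counts with known changes, but the outcome is not given here and no result rests on it. The members, gene lists and tests were chosen with earlier results of these data known. Named from a list were all lipl and bHLH-zip genes, and from the others at most 4 called members, by smallest p, in each comparison. Most-like genes were the 5 with the highest Pearson r of log2 CPM (prior count 2) among those with a mean of at least 10 reads. Alternatives were DESeq2's size factors in edgeR, plain library sizes, no filter, no replicate block, DESeq2 1.42.0 and each library left out in turn. R 4.3.3, limma 3.58.1 and Python 3.11.15 were used.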

Additional observations from a re-analysis of the deposited data

How the results depend on the processing

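The day 4 difference of hlh-30 kept its direction under all alternatives, and its call was lost with plain library sizes (log2 fold change 1.30, adjusted p = 0.104 in edgeR) and with no replicate block (2.16, adjusted p = 0.0663); it lay between 1.79 and 2.47 with 1 library left out. The pairing by replicate number changed no other call of the 2 genes. The interaction of hlh-30 passed in DESeq2 (-2.89), did not pass with plain library sizes (-2.04), and lay between -4.1 and -2.10 with 1 library left out. Its fall with age in the mutant lay between -4.42 and -2.41, and that of mxl-3 between -3.47 and -2.64. At day 12 hlh-30 ranged from -1.95 to 0.05, reversed without mir-83 day 12 replicate 1 (0.05), and mxl-3 from -1.06 to 0.26, reversed without N2 day 12 replicate 2 (0.26).

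Counts of genes called moved more, and the causes were not tested. At day 4 the 1118 calls became 4029 with plain library sizes (210 higher and 3819 lower, in place of 701 and 417), 321 with no replicate block and 2590 in DESeq2, and between 0 and 2497 with 1 library left out. With age in mir-83 the 4427 calls became 6893 with plain sizes (5916 higher and 977 lower, in place of 2024 and 2403) and between 580 and 5649 with 1 library left out. With age in N2 the 714 calls became 1072 with no filter, 136 with no replicate block and 3252 in DESeq2, between 0 and 2467 with 1 library left out, and split into 657 higher and 290 lower with plain sizes, in place of 334 and 380. The interaction, with 0 calls, had 34 with DESeq2's size factors in edgeR, 1744 with plain sizes, 314 with no filter, 1299 in DESeq2 and between 0 and 550 with 1 library left out. At day 12 DESeq2 called 4. Among the lipl genes, with 0 calls, the fall with age in mir-83 gave 1 call with DESeq2's size factors, 1 with no filter, 3 in DESeq2 and between 0 and 5 with 1 library left out, and in N2 2 in DESeq2 and between 0 and 4. Without division by length the mean log2 ratio of hlh-30 to mxl-3 was 0.10 in young mutants, -0.64 in young N2, -0.26 in old mutants and 0.21 in old N2.

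A fit on only those hlh-30 isoforms that both tables list was not run, because the sources used here do not tie the accessions of the second table to isoform letters. With 2 libraries a group, the day 4 call of hlh-30 rests on each of the 4 day 4 libraries and on the scaling, and a difference that did not pass is not shown to be absent.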
